A study of Mus musculus with 6 samples.

Results

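The genes of the Wnt pathway described here are its ligands, its receptors and the core proteins that carry the signal inside the cell. They were measured in hepatic stellate cells, liver pericytes that hold retinoids in lipid droplets and turn into collagen-producing myofibroblasts after injury. They were taken by name: every gene whose probe symbol starts with Wnt or Fzd followed by a digit, together with Lrp5, Lrp6, Ror1, Ror2, Ryk, Dvl1, Dvl2, Dvl3, Apc, Axin1, Gsk3b and Ctnnb1. This gave 40 genes among 16446 different symbols, each measured by a single probe among 23473 probes. The 40 were 19 ligands, 9 frizzled receptors, 5 co-receptors and other receptors, 4 transducers and 3 members of the complex that destroys beta-catenin.

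Comparisons were made between 3 single-colour arrays of mice labelled SEPT4-KO and 3 of mice labelled wild type. SEPT4-KO mice lack Sept4, a septin, which is a filament-forming GTP-binding protein. Mice of both genotypes had liver cirrhosis induced with CCl4, carbon tetrachloride, so no array shows uninjured cells. The labels give no strain, age or dose, and do not say whether an array is 1 mouse, a pool or a repeat hybridisation of the same RNA. The p-values therefore reflect the spread among these 6 samples only, and that spread may be technical. The deleted gene could not be used to check the genotype labels, since no probe is named Sept4 or a synonym of it.

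Wnts are secreted lipid-modified glycoproteins that bind frizzled receptors on neighbouring cells. In the canonical branch the co-receptors Lrp5 and Lrp6 join in, Dishevelled is recruited, and the complex of Apc, axin and the kinase Gsk3b stops marking beta-catenin for destruction. Beta-catenin then enters the nucleus and acts with TCF and LEF factors. Other branches run through Ror1, Ror2 and Ryk and act on cell polarity, the cytoskeleton and calcium. In stellate cells Wnt signalling has been linked to both the activated and the quiescent state, and the study's title names Dkk2, a secreted Wnt antagonist.

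Values are normalised log2 signals, so a difference of 1 is a 2-fold difference, and all differences are SEPT4-KO minus wild type. A gene is said to have risen or fallen where its adjusted p in limma, a moderated linear model fitted to all probes, was under 0.05. Signals of different probes are not compared, since a probe's brightness also depends on its own sequence. Every array had a median of 5.02. Tied at an array's lowest value were 940 to 1255 probes, where a signal gives no more than an upper limit. The lowest value of an array was 0.31 to 0.32 in SEPT4-KO and 0.00 to 0.22 in wild type. The highest was 16.63 to 16.79 in SEPT4-KO and 15.68 to 15.79 in wild type. Any difference in processing between the genotypes cannot be told apart from genotype.

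Of the 40 genes, 10 rose in SEPT4-KO cells, against 26.7% of all probes, and 7 fell, against 16.0% of all probes. Together 17 passed, against 42.7% of all probes. These shares lie near those of all probes, and nothing is read from them about the pathway genes as a group. The median difference was 0.09 over the 40 genes and 0.12 over all probes. Differences of single genes ran from -1.78 to 2.24 as deposited, both extremes in genes near the lowest value in 1 genotype. At least a 2-fold difference was reached by 6 of the 17 genes that passed, as deposited. With a linear offset, which damps differences between dim values, Wnt8b at -0.92 and Ror2 at -0.87 no longer reached it. All SEPT4-KO arrays lay above all wild-type arrays for 13 genes, against 34.5% of all probes, and below them for 9, against 21.7% of all probes. Together 22 did not overlap, against 56.2% of all probes, and the other 18 did. In bulk samples such as these, fewer cells of a type and less RNA per cell cannot be told apart.

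**Figure D1:**
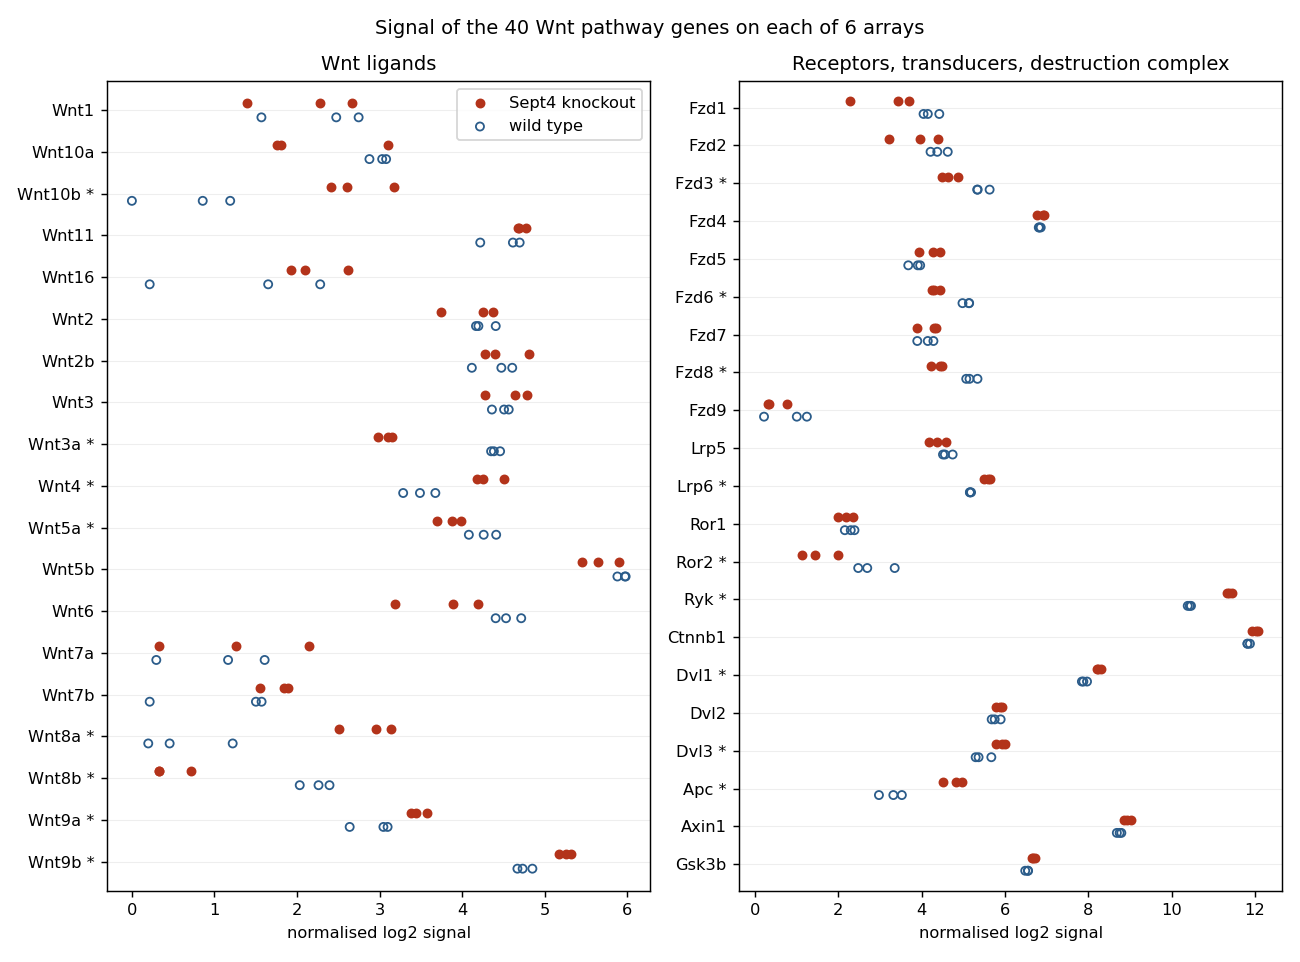
Normalised log2 signal (horizontal axis) of the 40 genes on each array, with the 3 SEPT4-KO arrays as filled points above the 3 wild-type arrays as open points; an asterisk marks an adjusted p under 0.05. Wnt3a, Fzd6 and Ryk show groups that are tight and well apart, whereas Wnt1, Wnt7a and Fzd9 overlap and scatter. The groups of Wnt8b are also apart, but 2 of its SEPT4-KO values are the lowest of their arrays, so the spread of that group is not resolved.

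Among the 19 ligands 5 rose, Wnt4, Wnt8a, Wnt9a, Wnt9b and Wnt10b, and Wnt3a, Wnt5a and Wnt8b fell. Both counts lie near the shares of all probes, of which 26.7% rose and 16.0% fell. The median difference over the 19 was 0.10. Wnt4, a ligand with roles in kidney and reproductive tract development, read 4.18, 4.26 and 4.51 in SEPT4-KO cells, against 3.49, 3.29 and 3.68 in wild-type cells. All 3 SEPT4-KO arrays were the higher ones. Wnt4 rose by 0.83 ± 0.14 (SE), 1.78-fold (adjusted p = 0.00710). Wnt9b, which in the liver is known from endothelial cells, read 5.26, 5.18 and 5.32 in SEPT4-KO cells, against 4.67, 4.85 and 4.73 in wild-type cells. The groups were separate and differed by 0.50 ± 0.07 (SE), an adjusted p of 0.00445. Its relative Wnt9a read 3.57, 3.44 and 3.38 in SEPT4-KO cells, against 3.05, 3.10 and 2.64 in wild-type cells. That is a rise of 0.54 ± 0.14 (SE), 1.45-fold (adjusted p = 0.0342), with no overlap. The call of Wnt9a ended without SEPT4-KO replicate 1, 2 or 3 or wild-type replicate 1, at adjusted p-values of 0.0971, 0.0832, 0.0645 and 0.0599. It also ended with a trended and robust variance prior, at 0.179.

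Wnt10b and Wnt8a rose, and in wild type both were near the bottom of the arrays, which leaves the size of either rise imprecise. Wnt10b, a ligand that restrains fat cell formation, read 2.61, 2.41 and 3.17 in SEPT4-KO cells, against 0.00, 1.19 and 0.86 in wild-type cells. The first of these wild-type values was the lowest value of its array. Wnt10b rose by 2.05 ± 0.38 (SE), with a 95% confidence interval of 1.08 to 3.01 (adjusted p = 0.00989). Wnt8a, an early embryonic ligand, read 3.14, 2.96 and 2.50 in SEPT4-KO cells, against 1.22, 0.20 and 0.46 in wild-type cells. No SEPT4-KO value came near a wild-type one, and the rise was 2.24 ± 0.32 (SE), with an interval of 1.42 to 3.07 (adjusted p = 0.00443). With a linear offset at the 10th percentile of the signals, which damps differences between dim values, the rises were 1.17 for Wnt10b and 1.30 for Wnt8a.

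Wnt3a, Wnt8b and Wnt5a fell. Wnt3a, the ligand most used in culture to switch on beta-catenin signalling, read 2.98, 3.15 and 3.10 in SEPT4-KO cells, against 4.46, 4.38 and 4.35 in wild-type cells. The arrays of each genotype lay close together, and the difference was -1.32 ± 0.07 (SE), a 2.50-fold fall (adjusted p = 0.000469). Wnt8b, a ligand best known from the developing forebrain, read 0.32, 0.71 and 0.32 in SEPT4-KO cells, against 2.39, 2.26 and 2.03 in wild-type cells. SEPT4-KO replicates 1 and 3 were at the lowest value of their arrays. The log2 difference was -1.78 ± 0.15 (SE) (adjusted p = 0.00107), and -0.92 with the linear offset. Wnt5a, the usual ligand of Ror receptors, read 3.70, 3.98 and 3.87 in SEPT4-KO cells, against 4.26, 4.08 and 4.41 in wild-type cells. The closest arrays of the genotypes were 3.98 and 4.08. Wnt5a differed by -0.40 ± 0.12 (SE), with an adjusted p just under the threshold at 0.0464. This call was the least stable of the 17: it ended under 11 of 17 other settings, with quantile normalisation at 0.0649 and cyclic loess at 0.0591. It also ended without SEPT4-KO replicate 1, 2 or 3, at 0.113, 0.0568 and 0.101, and without wild-type replicate 1 or 3, at 0.116 and 0.113.

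The other 11 ligands did not pass. Of these Wnt6 came nearest, reading 3.89, 3.19 and 4.19 in SEPT4-KO cells, against 4.53, 4.41 and 4.72 in wild-type cells. Its groups did not overlap, but SEPT4-KO replicate 2 lay well below the other arrays of its genotype. Wnt6 differed by -0.80 ± 0.28 (SE), and its adjusted p was 0.0731, or 0.0399 without SEPT4-KO replicate 3. Wnt10a read 1.76, 3.11 and 1.81 in SEPT4-KO cells, against 3.03, 3.08 and 2.88 in wild-type cells. SEPT4-KO replicate 2 thus lay slightly above every wild-type array, while the other SEPT4-KO arrays lay below them all. Wnt10a differed by -0.77 ± 0.40 (SE) at an adjusted p of 0.181, and without SEPT4-KO replicate 2 by -1.21 at 0.00545. Wnt5b, a close relative of Wnt5a, read 5.45, 5.65 and 5.90 in SEPT4-KO cells, against 5.88, 5.97 and 5.98 in wild-type cells, an adjusted p of 0.133. Without SEPT4-KO replicate 3 its adjusted p was 0.0298.

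Several ligands could not be resolved at these signals. Wnt16, Wnt7a and Wnt7b each lay at the lowest value of at least 1 array. Their differences were 0.83, 0.22 and 0.67, and the 95% confidence interval of Wnt16 ran from -0.63 to 2.30. Wnt1 read 2.67, 1.40 and 2.27 in SEPT4-KO cells, against 2.48, 1.57 and 2.75 in wild-type cells, so the spread within each genotype exceeded the difference of -0.15. By contrast Wnt2, Wnt2b, Wnt3 and Wnt11 had means between 4.12 and 4.72 in either genotype and differences of -0.13, 0.10, 0.09 and 0.20. For Wnt11, a ligand of the polarity branch, the 95% confidence interval of the difference was -0.15 to 0.56. For Wnt3 it was -0.29 to 0.47, and a fall as large as that of its relative Wnt3a lies outside that interval.

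Some of these ligand genes are neighbours on a chromosome. In the gene table used for names, with only protein-coding genes counted, Wnt3a lies next to Wnt9a, Wnt9b next to Wnt3, Wnt10b next to Wnt1 and Wnt6 next to Wnt10a. Within each array, Wnt3a minus Wnt9a averaged -0.38 ± 0.18 in SEPT4-KO cells and 1.47 ± 0.22 in wild-type cells (SD, n = 3 each). This change of -1.86 is the sum of a fall of Wnt3a and a rise of Wnt9a. The exact permutation p, two-sided, was 0.1, which 3 arrays against 3 cannot go below, or 0.133 adjusted over the 4 neighbour pairs. Wnt10b minus Wnt1 changed by 2.20 and Wnt9b minus Wnt3 by 0.41 with the same p-values. Wnt6 minus Wnt10a changed by -0.02 (p = 1 in the exact test).

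The promoters of the neighbours Wnt3a and Wnt9a are shown because the genes lie side by side and moved in opposite directions. Those of Wnt8b and Wnt10b are shown as examples of a dim ligand that fell and a dim ligand that rose. Each sequence is the 250 bases upstream of the listed start, 5′ to 3′, from RefSeq on GRCm38.p6. Wnt3a is at chr11:59290752-59291001 on the minus strand and Wnt9a at chr11:59306680-59306929 on the plus strand. Wnt8b is at chr19:44493222-44493471 on the plus strand and Wnt10b at chr15:98778151-98778400 on the minus strand. Capitals mark matches on either strand to the GC box, spelled GGGCGG. They also mark the TATA box, spelled TATAAA, and the TCF/LEF heptamer, spelled CTTTG and followed by any pair of letters from adenine and thymine. Matches that overlap or touch run together. No motif contains another.
Wnt3a: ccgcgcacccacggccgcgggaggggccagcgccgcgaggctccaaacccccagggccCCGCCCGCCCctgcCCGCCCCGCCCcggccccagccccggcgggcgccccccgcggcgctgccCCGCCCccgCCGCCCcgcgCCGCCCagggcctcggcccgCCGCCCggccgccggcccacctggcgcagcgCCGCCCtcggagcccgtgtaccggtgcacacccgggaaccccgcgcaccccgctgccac
Wnt9a: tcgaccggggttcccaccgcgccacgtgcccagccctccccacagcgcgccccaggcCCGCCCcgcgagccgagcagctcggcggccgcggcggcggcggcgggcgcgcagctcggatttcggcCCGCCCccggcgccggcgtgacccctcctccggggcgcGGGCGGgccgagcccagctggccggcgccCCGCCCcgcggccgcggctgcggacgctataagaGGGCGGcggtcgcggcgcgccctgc
Wnt8b: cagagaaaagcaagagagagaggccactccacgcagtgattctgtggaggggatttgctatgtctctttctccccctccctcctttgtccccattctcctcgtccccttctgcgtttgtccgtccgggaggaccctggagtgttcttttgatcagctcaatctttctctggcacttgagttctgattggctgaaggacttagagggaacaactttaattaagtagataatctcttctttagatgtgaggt
Wnt10b: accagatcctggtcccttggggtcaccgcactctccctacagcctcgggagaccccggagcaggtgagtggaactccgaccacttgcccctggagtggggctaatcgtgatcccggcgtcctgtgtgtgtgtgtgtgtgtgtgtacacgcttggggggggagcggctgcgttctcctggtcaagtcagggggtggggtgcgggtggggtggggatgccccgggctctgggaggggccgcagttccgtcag
The windows of the opposite-moving neighbours are alike in composition, with 87.6% G and C and 9 GC boxes for Wnt3a and 84.4% and 5 for Wnt9a. Wnt8b has 48.4% G and C and none of these motifs, and Wnt10b has 66.8% and none. RefSeq windows were matched for 28 of the 40 genes, 32 windows in all. Of these 32 windows 78.1% held a GC box, 15.6% a TATA box and 9.38% a TCF/LEF heptamer, against 32.7%, 12.4% and 14.8% of all 32851 windows in the table. The median share of G and C was 71.4% in the pathway windows and 52.4% in all windows. Among genes that rose, 6 of 7 had a GC box, among those that fell 2 of 3, and among the rest 15 of 18. The heptamers were in windows of Fzd7, Wnt11 and Wnt5b, none of which passed the threshold. A match is a match of letters only.

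The frizzled receptors Fzd3, Fzd6 and Fzd8 fell, 3 of 9, against 16.0% of all probes. None rose in limma, against 26.7% of all probes, and the median difference over the 9 was -0.55. An unadjusted p under 0.05 gave 0 higher and 4 lower, and an ordinary test per probe 0 and 3. The count of falls was 5 with a trended and robust variance prior, which added Fzd1 and Fzd2. Fzd3, a receptor of the polarity branch, read 4.50, 4.64 and 4.87 in SEPT4-KO cells, against 5.34, 5.63 and 5.33 in wild-type cells. Fzd3 fell by 0.77 ± 0.13 (SE), or 1.71-fold (adjusted p = 0.00841). Fzd6, its nearest relative and also a polarity receptor, read 4.30, 4.43 and 4.24 in SEPT4-KO cells, against 4.98, 5.14 and 5.13 in wild-type cells. Its arrays were tighter within each genotype, and the fall was 1.69-fold, a difference of -0.76 ± 0.08 (SE) (adjusted p = 0.00166). Fzd8 read 4.48, 4.43 and 4.23 in SEPT4-KO cells, against 5.15, 5.34 and 5.07 in wild-type cells. Fzd8 fell 1.75-fold, a difference of -0.80 ± 0.11 (SE) (adjusted p = 0.00335). For all 3 receptors every SEPT4-KO array lay below every wild-type array.

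Fzd5, the receptor most like Fzd8, did not fall with it. It read 4.45, 4.27 and 3.93 in SEPT4-KO cells, against 3.68, 3.91 and 3.96 in wild-type cells, with a difference of 0.37 ± 0.16 (SE) (adjusted p = 0.126). Without SEPT4-KO replicate 3 its adjusted p was 0.0382, and 1 frizzled gene then counted as higher. Fzd1 read 2.28, 3.69 and 3.44 in SEPT4-KO cells, against 4.42, 4.04 and 4.15 in wild-type cells. SEPT4-KO replicate 1 was the lowest by more than 1, and the difference of -1.07 ± 0.40 (SE) did not pass (adjusted p = 0.0869). Without that array it was -0.64, with 0.0401. Fzd2 showed the same low replicate, at 3.21 with 4.39 and 3.97 in the other SEPT4-KO arrays, against 4.21, 4.63 and 4.37 in wild-type cells, an adjusted p of 0.240. Fzd7 differed by 0.07, and Fzd4, the receptor of the norrin pathway in vessels, by 0.04 with a 95% confidence interval of -0.12 to 0.21. Fzd4 turned to -0.03 after quantile normalisation or cyclic loess. Fzd9 lay at the lowest value on 2 SEPT4-KO arrays and 1 wild-type array, and no level was resolved.

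**Figure D2:**
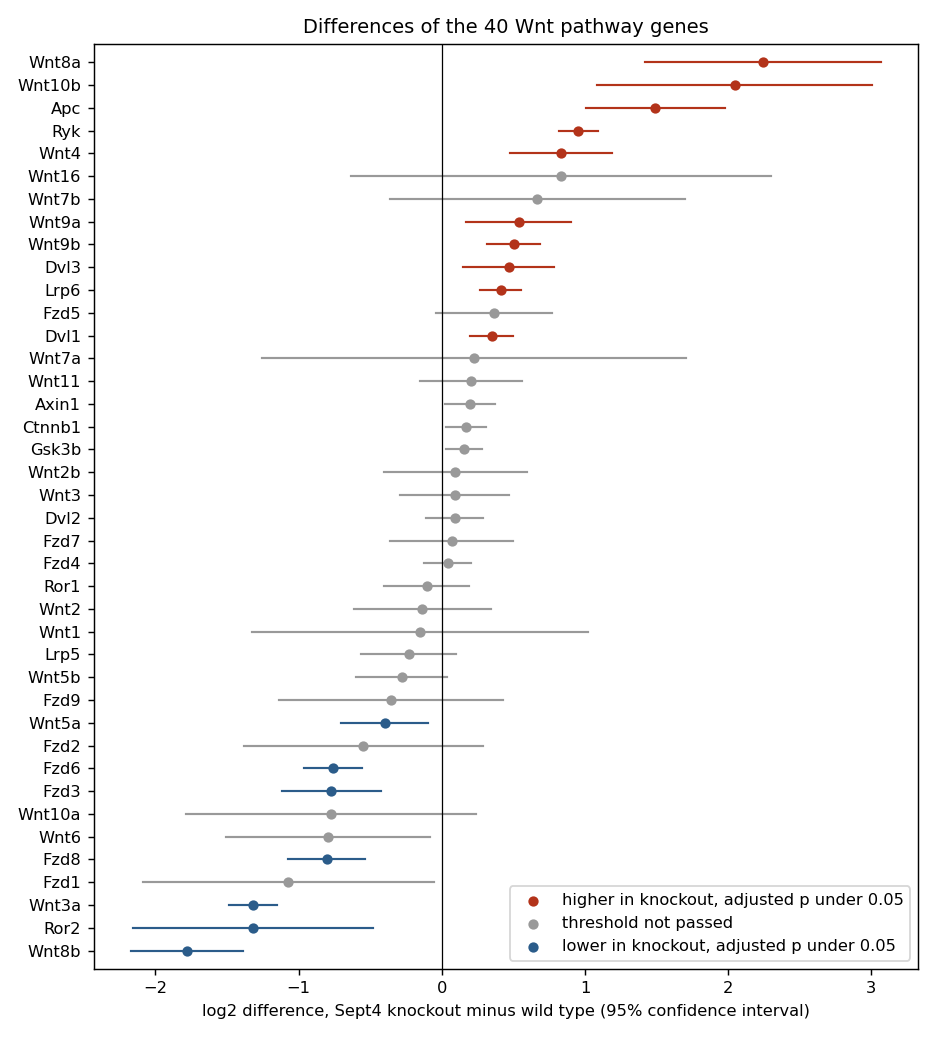
Log2 difference, SEPT4-KO minus wild type, of the 40 genes with its 95% confidence interval, ordered by size. Wnt8a, Wnt10b and Apc stand at the upper end and Wnt8b, Ror2 and Wnt3a at the lower end as deposited, while Fzd1 at -1.07 and Wnt16 at 0.83 did not pass and have wide intervals.

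Of the 5 co-receptors and other receptors Ryk and Lrp6 rose and Ror2 fell, where 26.7% of all probes rose and 16.0% fell. Ryk, a Wnt receptor with an inactive kinase domain, read 11.44, 11.33 and 11.37 in SEPT4-KO cells, against 10.43, 10.46 and 10.39 in wild-type cells. The genotypes were about 1 log2 unit apart, and the 3 arrays spanned 0.11 in SEPT4-KO and 0.08 in wild type. Ryk rose by 0.95 ± 0.05 (SE), or 1.94-fold (adjusted p = 0.000526), and by 0.79 after quantile normalisation and 0.76 after cyclic loess. Its promoter is shown since Ryk had the smallest adjusted p of the genes that rose. It lies at chr9:102834670-102834919 on the plus strand of GRCm38.p6 (RefSeq), with 65.2% G and C, 2 GC boxes and 1 TATA box in capitals as above.
Ryk: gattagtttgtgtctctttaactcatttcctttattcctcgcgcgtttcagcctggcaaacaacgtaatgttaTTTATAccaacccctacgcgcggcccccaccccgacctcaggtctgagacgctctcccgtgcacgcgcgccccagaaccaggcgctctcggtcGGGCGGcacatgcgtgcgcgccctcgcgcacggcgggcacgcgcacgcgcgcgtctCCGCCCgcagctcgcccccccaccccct

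Lrp6, the co-receptor that Wnts bring together with a frizzled, read 5.49, 5.64 and 5.60 in SEPT4-KO cells, against 5.16, 5.16 and 5.19 in wild-type cells. Lrp6 rose by 0.41 ± 0.06 (SE), or 1.33-fold (adjusted p = 0.00405). Its relative Lrp5 read 4.37, 4.16 and 4.58 in SEPT4-KO cells, against 4.51, 4.74 and 4.56 in wild-type cells. These groups overlapped, and the difference of -0.23 ± 0.13 (SE) had an adjusted p of 0.214. Ror2, a receptor tyrosine kinase for Wnt5a, read 1.12, 2.0 and 1.44 in SEPT4-KO cells, against 2.48, 3.35 and 2.69 in wild-type cells. The groups did not overlap, and Ror2 differed by -1.32 ± 0.33 (SE) (adjusted p = 0.0265), or by -0.87 with the linear offset. The call ended without SEPT4-KO replicate 1 or 3, at 0.0714 and 0.0754, and without wild-type replicate 2 or 3, at 0.0593 and 0.0648. Ror1, its relative, differed by -0.10 ± 0.12 (SE) (adjusted p = 0.511).

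Of the 4 transducers Dvl1 and Dvl3 rose, and of the 3 genes of the destruction complex Apc rose. These 3 of 7 are near the 42.7% of all probes that passed. All 7 differences were positive as deposited, against 13648 of 23473 for all probes, and that of Ctnnb1 was negative after quantile normalisation or cyclic loess. Dvl1, a Dishevelled scaffold that relays the receptor's signal, read 8.30, 8.24 and 8.20 in SEPT4-KO cells, against 7.97, 7.85 and 7.88 in wild-type cells. Dvl1 rose by 0.35 ± 0.06 (SE), or 1.27-fold (adjusted p = 0.00735), and by 0.24 after quantile normalisation. Dvl3 read 5.93, 6.01 and 5.79 in SEPT4-KO cells, against 5.67, 5.37 and 5.30 in wild-type cells, a 1.38-fold rise (adjusted p = 0.0326). The call of Dvl3 ended without SEPT4-KO replicate 1 or 2, at 0.0879 and 0.0943, and without wild-type replicate 2 or 3, at 0.10 and 0.0891. Dvl2 differed by 0.09 ± 0.08 (SE), with overlapping groups and an adjusted p of 0.406. None of the 4 transducers fell in limma, against 16.0% of all probes, with 0 lower at an unadjusted p under 0.05 and 0 by the ordinary test. With only 4 genes nothing is read from that count.

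Apc, the scaffold on which beta-catenin is marked for destruction, rose. It read 4.83, 4.96 and 4.51 in SEPT4-KO cells, against 3.52, 3.32 and 2.97 in wild-type cells. Every SEPT4-KO array was higher than every wild-type array by about 1 or more, and Apc rose by 1.49 ± 0.19 (SE), or 2.81-fold (adjusted p = 0.00307), and by 1.30 with the linear offset. Axin1, the limiting scaffold of the complex, read 8.85, 8.94 and 9.03 in SEPT4-KO cells, against 8.68, 8.75 and 8.79 in wild-type cells. Gsk3b, the kinase that phosphorylates beta-catenin, read 6.65, 6.67 and 6.73 in SEPT4-KO cells, against 6.55, 6.55 and 6.49 in wild-type cells. Their differences were 0.20 ± 0.07 and 0.15 ± 0.05 (SE), with adjusted p-values of 0.0705 and 0.0562. For both genes the genotypes did not overlap, but the differences are close to the median of 0.12 over all probes, and each was 0.09 after quantile normalisation. Each gene passed, as higher, under 4 of 18 other settings.

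Ctnnb1, which encodes beta-catenin itself, read 11.94, 12.02 and 12.07 in SEPT4-KO cells, against 11.82, 11.88 and 11.82 in wild-type cells. The difference of 0.17 ± 0.06 (SE) did not pass (adjusted p = 0.0606), and its 95% confidence interval was 0.03 to 0.31. It turned to -0.07 after quantile normalisation and -0.06 after cyclic loess, with adjusted p-values of 0.302 and 0.377. The difference in beta-catenin messenger RNA was thus smaller than the shift between scalings. Ctnnb1 did pass, as higher, under 5 of 18 other settings, none of which rescaled the arrays. Without the dimmest 25% of probes its adjusted p in limma was 0.0329. The arrays do not measure beta-catenin protein, whose amount the pathway controls.

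How often a gene passes depends on its signal. Of all probes 12.7% passed at a mean signal of 0 to 2, 19.1% at 2 to 4, 44.2% at 4 to 6, 64.4% at 6 to 8 and 70.3% above 8. Of the pathway genes 3 of 7, 4 of 8, 8 of 19, 0 of 2 and 2 of 4 passed in these same ranges. The median standard error of the difference was 0.38 for the 7 dimmest genes, 0.14 for the 19 of signal 4 to 6 and 0.06 for the 4 above 8. A difference of 0.5, which was called for Wnt9b, therefore could not be resolved for Wnt16 or Wnt7a.

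**Figure D3:**
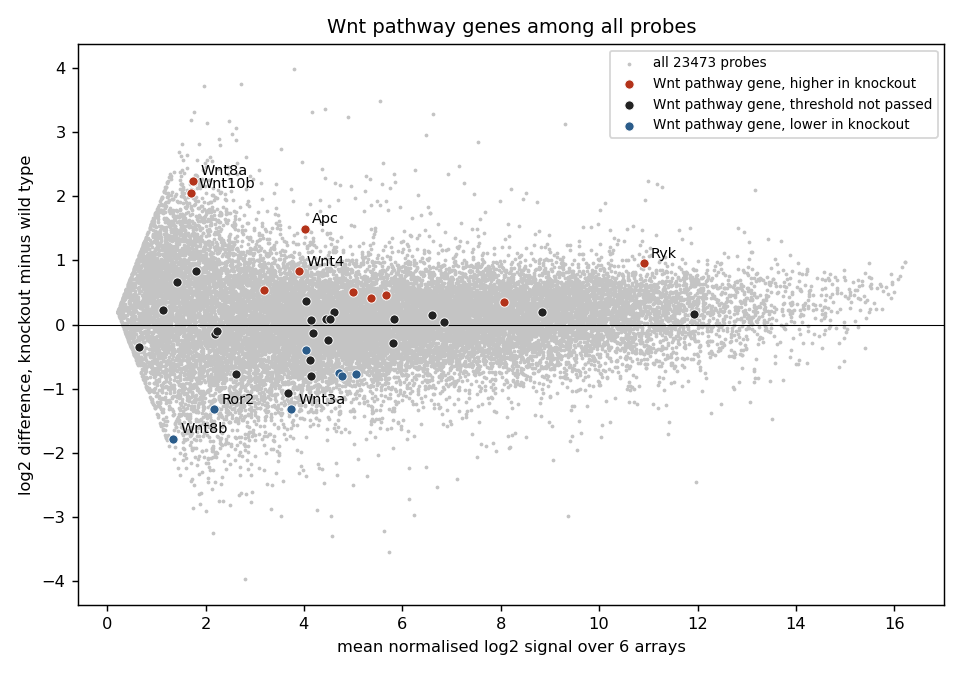
Log2 difference, SEPT4-KO minus wild type (vertical), against the mean log2 signal of the 6 arrays (horizontal) for all 23473 probes in grey and the 40 genes in colour. Wnt8a, Wnt10b and Wnt8b lie in the dim fan on the left where differences scatter widely, whereas Ryk lies among the bright probes. Some bright probes rose more than Ryk, such as that of Frzb, by 1.27.

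Related genes can be compared within an array, where an array-wide offset would cancel, though the arrays already shared a median of 5.02. A shift that depends on signal would not cancel between genes of unlike brightness. In 9 of 18 related pairs the difference between the genes was separate between the genotypes, against 56.2% of all probes for single signals. Wnt8a minus Wnt8b averaged 2.42 ± 0.35 in SEPT4-KO cells and -1.60 ± 0.45 in wild-type cells (SD, n = 3 each), a change of 4.02 ± 0.33 (SE). The size of this change is imprecise, since Wnt8b was at the lowest value on 2 SEPT4-KO arrays, and with the linear offset the parts shrank to a rise of 1.30 for Wnt8a and a difference of -0.92 for Wnt8b. Wnt3a minus Wnt3 changed by -1.41 ± 0.20 (SE), Wnt10a minus Wnt10b by -2.82 ± 0.72 and Fzd5 minus Fzd8 by 1.17 ± 0.14. Lrp5 minus Lrp6 changed by -0.64 ± 0.16 (SE), Ror1 minus Ror2 by 1.22 ± 0.32 and Dvl1 minus Dvl2 by 0.26 ± 0.04. Dvl2 minus Dvl3 changed by -0.38 ± 0.07 (SE) and Fzd1 minus Fzd7 by -1.14 ± 0.31. In each of these 9 pairs the exact two-sided permutation p was 0.1, or 0.2 adjusted over the 18 pairs. In other pairs any change lay within the spread. Fzd3 minus Fzd6 averaged 0.34 ± 0.24 in SEPT4-KO cells and 0.35 ± 0.15 in wild-type cells (SD, n = 3 each), a change of -0.01 ± 0.16 (SE). Wnt9a minus Wnt9b changed by 0.03 ± 0.16 (SE) and Wnt5a minus Wnt5b by -0.12 ± 0.15. Those 3 pairs had exact p-values of 0.9, 0.8 and 0.5.

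**Figure D4:**
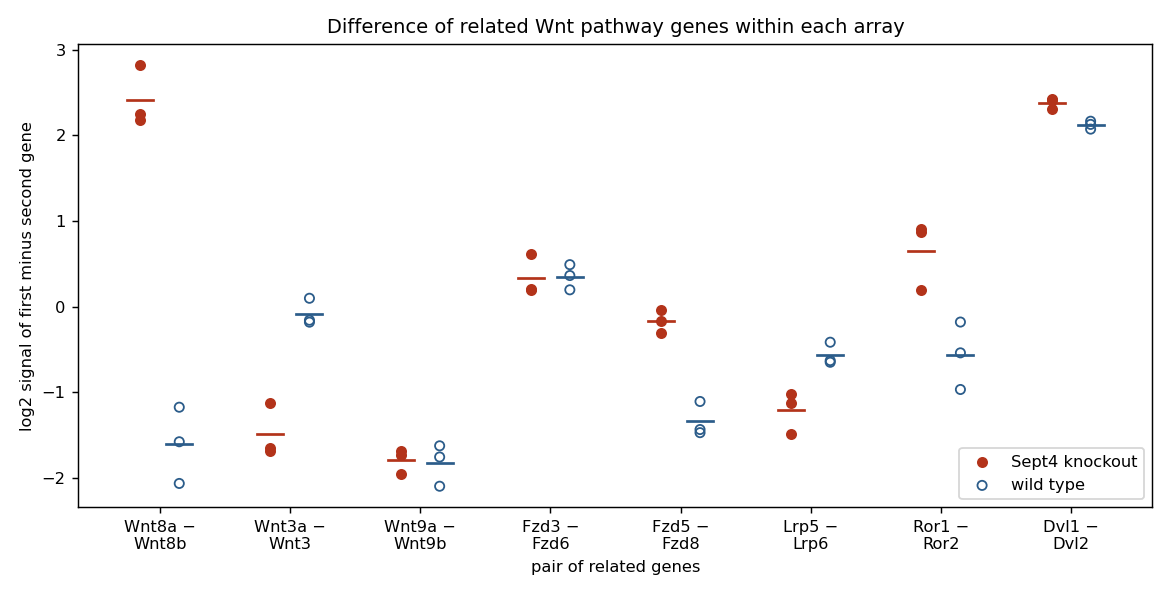
Log2 signal of the first minus the second gene of 8 related pairs on each array, with SEPT4-KO arrays filled on the left, wild-type arrays open on the right and a bar at each mean; the height of a pair has no meaning, since the probes differ, and the gap between genotypes does. Wnt8a minus Wnt8b shows a gap whose size is imprecise, with Wnt8b at the lowest value on 2 SEPT4-KO arrays, and Wnt9a minus Wnt9b and Fzd3 minus Fzd6 show none beyond their spread.

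Of 17 genes listed for Wnt secretion and R-spondin signalling 13 were measured, 5 rose and none fell in limma, while an unadjusted p under 0.05 gave 5 higher and 1 lower, and the ordinary test 5 and 0. Of the 13 differences 4 were negative. Rspo3, an R-spondin that strengthens Wnt signals at the receptor, read 12.16, 12.21 and 12.20 in SEPT4-KO cells, against 11.43, 11.44 and 11.31 in wild-type cells. The groups were far apart and tight, and it rose by 0.80 ± 0.06 (SE) (adjusted p = 0.000689). Porcn, the acyltransferase that lipidates Wnts, rose by 0.97, the receptor gene Lrp4 by 1.05 and the dim R-spondin receptor gene Lgr6 by 1.98. The list's median difference was 0.54, against 0.12 over all probes. Counts of this kind are read against the 26.7% and 16.0% of all probes that rose and fell, and no test of a list was made.

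Among 25 measured genes of 33 that act on the destruction complex or on Dishevelled, 13 rose and 5 fell, with a median difference of 0.37. Axin2, a feedback scaffold and target of the pathway, read 3.36, 3.16 and 3.75 in SEPT4-KO cells, against 1.43, 1.99 and 1.92 in wild-type cells, an adjusted p of 0.00371. Nkd1, a Dishevelled antagonist, rose by 0.88, whereas the phosphatase subunit gene Ppp2r5a fell by 0.93 and the casein kinase gene Csnk1e by 0.86. Of 29 measured polarity and calcium genes of 34, 8 rose and 8 fell, with a median of -0.02. Camk2a, a calcium-dependent kinase, rose by 0.84 and the formin gene Daam2 by 0.70, whereas the transcription factor gene Nfatc3 fell by 0.95. Of 21 measured nuclear partners of beta-catenin of 22, 7 rose and 5 fell, with a median of 0.23. Pygo1, a co-activator, rose by 1.42, whereas the DNA-binding partner Lef1 fell by 1.69 and the acetyltransferase gene Ep300 by 0.65. Lef1 and Pygo1 were dim in both genotypes, and Axin2 was dim in wild type at a mean of 1.78, so the sizes of their changes are imprecise. Of 19 measured antagonists of 20, 4 rose and 1 fell, with a median of -0.12. Sfrp2 and Frzb, secreted frizzled-related proteins, rose by 1.87 and 1.27, and Kremen2, a receptor for Dkk proteins, rose by 0.47. The gene that fell was Dkk2, reading 1.01, 1.13 and 0.32 in SEPT4-KO cells, against 4.79, 4.80 and 4.77 in wild-type cells. It is the gene in the study's title, so its fall is no independent evidence.

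All 14 markers of the labelled cell type, the stellate cell, were measured, 8 of which rose and 4 fell. Over all probes 26.7% rose and 16.0% fell. Most of the 14 had a mean signal above 6, and of all probes 64.4% passed at 6 to 8 and 70.3% above 8. Acta2, smooth muscle actin, averaged 14.69 in SEPT4-KO and 15.25 in wild type, and Lrat, which stores retinol as esters, 7.46 in SEPT4-KO and 5.05 in wild type. The collagen genes were split. Col3a1 averaged 14.22 in SEPT4-KO and 12.13 in wild type, and Col1a1 10.98 in SEPT4-KO and 10.53 in wild type. Both rose, whereas Col1a2 fell, at 10.12 in SEPT4-KO and 11.32 in wild type. Tagln fell too, at 10.74 in SEPT4-KO and 13.19 in wild type, as did Des. The others that rose were Vim, Cygb, Hgf, Rgs5 and Pdgfrb. The summed signal of the 14, on the log2 scale, was 16.74 to 16.81 in SEPT4-KO and 16.47 to 16.63 in wild type. The brightest genes carry such a sum. The medians of the 14 overlapped, at 9.85 to 9.92 in SEPT4-KO and 9.77 to 9.88 in wild type.

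The summed signals of most other cell types also differed between the genotypes, in either direction. For 10 of 11 macrophage markers the sum was 12.30 to 12.37 in SEPT4-KO and 12.06 to 12.15 in wild type, and for 9 of 11 endothelial markers 8.62 to 8.70 in SEPT4-KO and 8.35 to 8.45 in wild type. These sums were higher in SEPT4-KO, but the medians of the same lists were lower, at 5.33 to 5.46 in SEPT4-KO and 5.46 to 5.66 in wild type for macrophage markers and 3.61 to 3.82 in SEPT4-KO and 3.84 to 4.32 in wild type for endothelial markers. Of the macrophage markers the bright Cd5l rose by 0.49, whereas Emr1 fell by 1.27 and Cd14 by 1.01. Single markers of a cell type thus moved in opposite directions. For 5 of 8 cholangiocyte markers it was 8.97 to 9.04 in SEPT4-KO and 10.09 to 10.22 in wild type, of which Spp1 is also made by myofibroblasts. For 6 portal fibroblast markers it was 8.19 to 8.28 in SEPT4-KO and 8.59 to 8.66 in wild type. For 4 of 5 mesothelial markers it was 5.21 to 5.41 in SEPT4-KO and 5.58 to 5.72 in wild type. These 3 sums were lower in SEPT4-KO. Spp1, which fell by 1.26, was the only cholangiocyte marker that passed. The medians of that list overlapped, at 3.88 to 4.23 in SEPT4-KO and 3.71 to 4.19 in wild type. Of the portal fibroblast markers Thy1 fell by 2.24, whereas Entpd2 rose by 0.59 and Cd34 by 0.42, and the medians overlapped too. For mesothelial markers the medians were lower in SEPT4-KO, as the sums were. Lymphocyte markers, 7 of 8, summed to 5.77 to 6.18 in SEPT4-KO and 5.38 to 5.76 in wild type. These ranges nearly touched, at 5.765 in SEPT4-KO and 5.764 in wild type, and 3 of the 7 markers had a mean signal below 2. Their medians overlapped, at 2.269 to 2.995 in SEPT4-KO and 1.908 to 2.631 in wild type. The sums overlapped only for 9 of 11 hepatocyte markers. They were 10.46 to 10.52 in SEPT4-KO and 10.44 to 10.48 in wild type. In these 7 lists 0 to 2 markers rose and 1 or 2 fell. No marker lay at the lowest value of all 6 arrays, and the part of other cells in the results above was not tested.

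**Figure D5:**
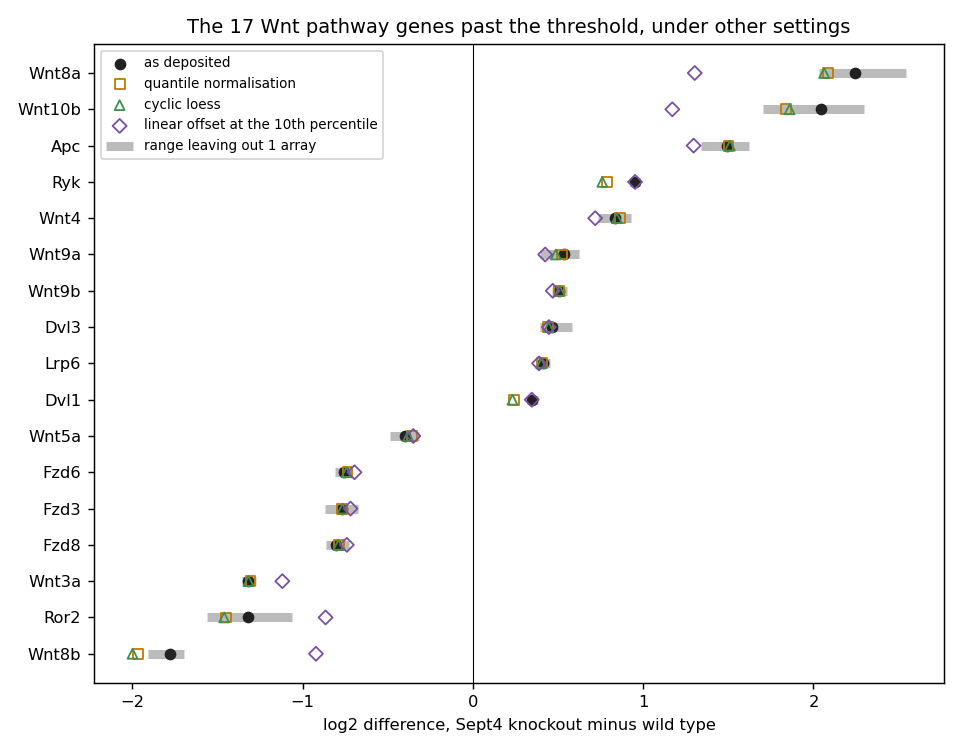
Log2 difference, SEPT4-KO minus wild type, of the 17 genes past the threshold as deposited, after quantile normalisation or cyclic loess, and with a linear offset, with a grey bar for the range when 1 array is left out. All 17 keep their sign, and Wnt8a, Wnt10b, Wnt8b and Ror2 shrink most with the offset, to 1.30, 1.17, -0.92 and -0.87.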

How the data were processed

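Gene expression was measured on 6 single-colour (Cy5) arrays of total RNA. The deposited values are log2 signals, quantile normalised by the authors per the labels. Their base was judged from their range, and upper quartiles and highest values still differ between arrays. A microRNA kit and tumour samples appear in the labelling protocol, so the design was taken from the genotype and cell type labels.

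Probes were named from the platform annotation (16631 with 1 symbol, 6842 with none), and all 40 symbols are current in a gene table on GRCm38.p6. The genes, lists, pairs and tests were chosen with earlier results of these data known. All 40 genes were to be named, and up to 4 of each further list that passed, by size.

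Differences were fitted in limma 3.58.1 (R 4.3.3; lmFit, eBayes), two-sided, with Benjamini-Hochberg adjustment over 23473 probes. Residual degrees of freedom numbered 4, plus 1.11 from the prior. The fit was tested in 10 simulations with 200 of 23473 probes changed. It recovered 24.5%, 54.2% and 70.9% of log2 changes of 0.5, 1 and 2, and 7.1% of its calls were false. In the real data 10025 probes passed, so these shares need not hold there. Alternatives were other normalisations (quantile, median, cyclic loess), filters on dim probes, a linear offset of 2.34, a trended and robust prior, array weights, a block for replicate number, omission of each array, an ordinary test and the mean of a gene's probes.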

Additional observations from a re-analysis of the deposited data

How the results depend on the processing

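Over all probes 10025 passed, and between 7724 and 11792 under 18 other settings. Of the calls 62.6% were higher, but 52.5% after quantile normalisation and 51.5% after cyclic loess, when the median difference of all probes was 0.02 and 0.01 in place of 0.12. All 17 pathway genes that passed kept their sign wherever they were measured, and 13 passed under each such setting; the exceptions were Wnt5a, Wnt9a, Dvl3 and Ror2. The number that rose was 8 to 11 and that fell 2 to 10. The 2 falls were without the dimmest 50% of probes, which leaves 12 of the 40 genes, and the 10 with the trended and robust prior. Leaving out 1 array gave 8 to 10 higher and 5 to 7 lower, and 7954 to 9082 probes.

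Of the 23 genes that did not pass, 9 passed under at least 1 setting and 8 changed sign. After quantile normalisation Ctnnb1 was at -0.0680 and Fzd4 at -0.0305. After cyclic loess Ctnnb1 was at -0.0576, Fzd4 at -0.0290 and Wnt7a at -0.0206, and with array weights Wnt3 was at -0.0039. Leaving out 1 array, Wnt1 ran from -0.498 to 0.208, Wnt2 from -0.258 to 0.0558, Wnt2b from -0.0603 to 0.204, Wnt3 from -0.0193 to 0.233, Wnt7a from -0.229 to 0.684 and Fzd7 from -0.0367 to 0.214. The cause was not tested.

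The replicate numbers do not pair the arrays: deviations of same-numbered arrays from their group means correlated at 0.008, -0.001 and -0.002. With the replicate block 7724 probes passed, 9 pathway genes rose and 6 fell, and Dvl3 and Wnt5a were the calls that ended, at adjusted p-values of 0.0553 and 0.112. With the ordinary test Wnt5a, Wnt9a, Dvl3 and Ror2 ended, at 0.0765, 0.0629, 0.0583 and 0.0560. Averaging a gene's probes changes nothing for these 40 genes, which have 1 probe each. Values at the lowest of an array limit what can be said of Wnt7a, Wnt7b, Wnt8b, Wnt10b, Wnt16 and Fzd9.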
